A study of Homo sapiens with 6 samples.

Results

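A set of 349 accessible regions was called in all 3 wild-type libraries of HCT116 cells and in none of the 3 libraries from cells depleted of NuMA. HCT116 is an established human colon cancer line. The assay was ATAC-seq, which reads open chromatin from the places where a transposase can cut and tag the DNA, and each library had 1 deposited list of peaks. All peaks of the 6 lists that overlapped by at least 1 bp were merged, which gave 58926 regions on chromosomes 1 to 22 and X. The 349 regions, called wild-type-only here, were 0.592% of them. For comparison, 368 regions (0.625%) were called in the 3 NuMA-depleted libraries and in no wild-type library, and 17009 were called in all 6.

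The labels describe the groups as wild type and NuMA depletion and give no agent, duration or clone. Sample titles carry AID for NuMA depletion and NC for wild type, and the peak names also the word combine. None of these is explained in the labels, so whether a list joins several runs or samples is not known. Nor do the labels say whether replicates came from separate cultures, so spreads and p-values describe these libraries and may be technical. The regions were chosen by presence and absence of a call in these same lists, so the strength, width and rank of the wild-type-only regions are given as a description, with no test. Absence from a list means that no peak reached the caller's limit, and not that the site was closed.

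NuMA is a large nuclear protein that organises the poles of the mitotic spindle and is part of the nuclear scaffold in interphase. Linker histone H1, which the series title links to NuMA, binds nucleosomes where the DNA enters and leaves them and favours compact chromatin. Accessible sites in a cell are mostly promoters, enhancers and sites held open by DNA-binding proteins such as CTCF, and a narrow ATAC-seq peak marks a short stretch free of nucleosomes.

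The libraries were not alike. Wild-type lists held 32503 to 38685 peaks, and those of NuMA-depleted replicates 1, 2 and 3 held 38466, 45892 and 21783. Depth relative to the average library (set to 1) was estimated at 0.762 to 0.975 in wild-type and 1.07 to 1.21 in NuMA-depleted libraries. The estimate takes the smallest peak width as the caller's fragment length, which no source states, and depth in reads remained unknown. The narrowest peak was 190 to 222 bp in wild-type lists and 213, 264 and 223 bp in the lists of NuMA-depleted replicates 1, 2 and 3. The count of 349 rested on several single libraries. Leaving out wild-type replicate 1, 2 or 3 gave 786, 616 or 976 regions, and leaving out NuMA-depleted replicate 1 or 2 gave 610 or 1287. NuMA-depleted replicate 3, the shortest list, mattered least, with 370 regions when it was left out. A rise is built in, as each omission loosens the rule.

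Most wild-type-only regions were weak, narrow sites. The number of fragments stacked at the summit, recovered from the authors' fold and p-value, had a median of 14 in each of the 3 wild-type libraries, with ranges of 6 to 41, 6 to 63 and 6 to 39 in replicates 1, 2 and 3. Regions called in all 6 libraries had medians of 27, 31 and 27 fragments in the same libraries. The local background at the wild-type-only regions had medians of 1.54, 1.36 and 1.39 fragments. Their fold over that background, each list's own value, had medians of 5.42, 6.06 and 5.68. The smallest pileup of any peak was 6 fragments in each wild-type list and 7, 8 and 7 in the lists of NuMA-depleted replicates 1, 2 and 3. Fragments amplified by PCR are not independent molecules, so these numbers carry counting error and more.

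**Figure D1:**
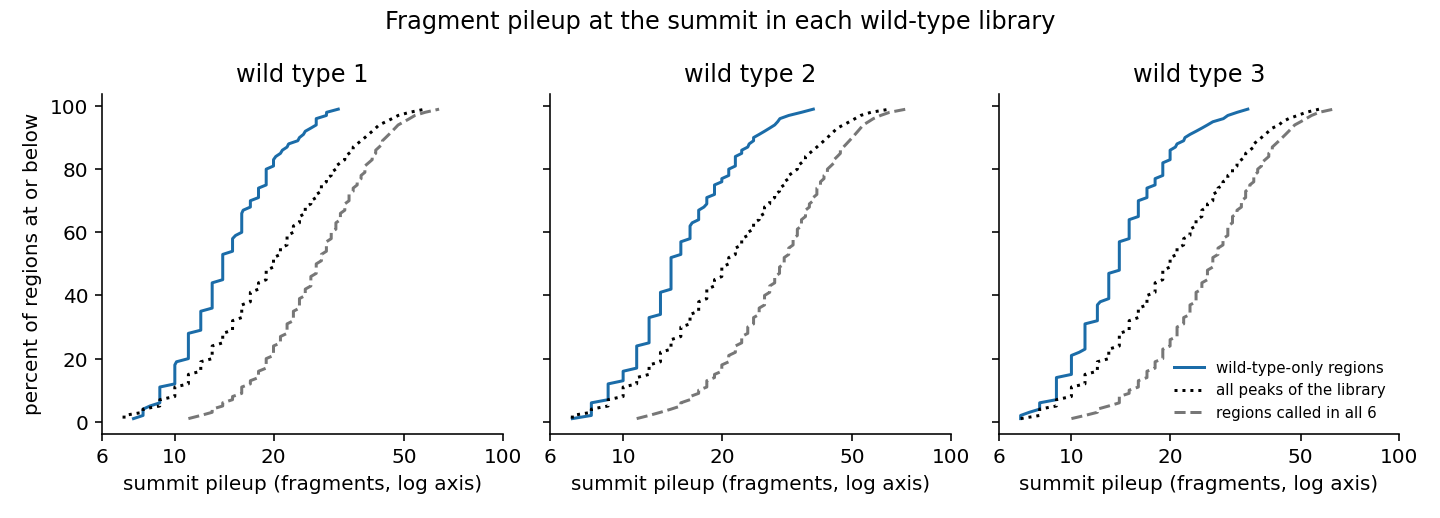
Cumulative percent of regions (vertical axis) by summit pileup in fragments (horizontal log axis) in wild-type replicates 1, 2 and 3, from the 1st to the 99th percentile. In each panel the wild-type-only regions (solid blue, median 14) lie to the left of all peaks of that library (dotted, medians 20, 21 and 20) and of the regions called in all 6 libraries (dashed, medians 27, 31 and 27).

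Ranked by q within their own lists, the wild-type-only regions sat in the lower part, at a median percentile of 27.0, 27.2 and 24.7 in wild-type replicates 1, 2 and 3. Regions called in all 6 libraries had medians of 72.2, 74.0 and 70.4. Of the 349, 75 (21.5%) were below the 25th percentile in all 3 lists, 19 (5.44%) were above the 50th in all 3 and 3 (0.860%) above the 75th in all 3. The position of 1 region varied between lists, and the highest and lowest of its 3 percentiles differed by a median of 21.9 points. The fold had a median ratio of 1.32 between the highest and the lowest library, against 1.27 among the wild-type libraries in regions called in all 6. Wild-type replicate 2 gave the highest fold in 180 of the 349 regions (51.6%). It did so in 60.6% of the regions called in all 6 too, so the lead of that library was not confined to wild-type-only regions.

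Median widths over the 349 regions were close in the 3 wild-type libraries, at 315, 317 and 326 bp in replicates 1, 2 and 3. Regions called in all 6 libraries had median widths of 640, 653 and 636 bp there. The narrowest peak in the list of NuMA-depleted replicate 2 was 264 bp, and 187 of the 349 regions (53.6%) had at least 1 peak narrower than that. In 12 regions (3.44%) all 3 peaks were narrower. When peaks under 264 bp were removed from every list, 191 regions met the wild-type-only rule. The reverse rule, which defines the depleted-only regions, was then met by 382. Without this limit the 2 numbers were 349 and 368, so their near balance did not hold among wider peaks.

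Summits, the points of highest signal, were about as far apart in wild-type-only regions as in regions called in all 6, and farther apart at like width. The outermost of the 3 summits lay a median of 93 bp apart in a wild-type-only region, with 182 of the 349 (52.1%) within 100 bp. The corresponding distance was 82 bp in depleted-only regions and 89 bp among wild-type libraries in regions called in all 6, which are wider. Where the mean width lay between 289 and 395 bp, the middle range of the wild-type-only regions, the distance was 83 bp in 175 of these regions and 61 bp in 1673 regions called in all 6. All but 2 of the 349 held a single peak in each library. The widest was on chromosome 7 at 22390304 to 22391635, with peaks of 404, 341 and 1079 bp and summits up to 413 bp apart. The next widest lay on chromosome 6 at 20931985 to 20933241, with peaks of 657, 694 and 833 bp, and chromosome 8 at 74197841 to 74199010, with peaks of 978, 440 and 246 bp. On chromosomes 7 and 8 a single library had by far the widest peak.

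The strongest regions, ranked by the weakest of their 3 −log10 q values, had sharply placed summits. In 11 of the top 12 the summits of the 3 libraries fell within 50 bp. This held for 29.8% of all 349 and for 28.2% of regions called in all 6. Shared regions of like strength were not compared. Positions are on build hg19. The strongest, on chromosome 20 at 49609631 to 49609894, had pileups of 27, 30 and 30 fragments in wild-type replicates 1, 2 and 3 over backgrounds of 1.92, 1.88 and 1.96. Its summits were at 49609786, 49609779 and 49609779, and it stood at percentiles 81.9, 81.8 and 87.1 of the 3 lists. The nearest region with a call in any NuMA-depleted library began 5002 bp away. All 3 wild-type libraries thus placed a peak of nearly the same height within 7 bp.

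The second, on chromosome 10 at 116267001 to 116267650, had pileups of 27, 39 and 26 fragments, and the closest region with a NuMA-depleted call was 11039 bp away. The chromosome 8 region at 145673557 to 145674181 had the highest pileups of the 12, at 41, 63 and 39 fragments, and also the highest backgrounds, at 6.22, 6.08 and 5.09. Its summits spanned 7 bp, and a region with a NuMA-depleted call lay 3287 bp away. Replicate 2 stood above the other two in both regions.

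The chromosome 19 region at 38720347 to 38720730 had 33, 29 and 34 fragments, with a region called in all 6 libraries 4890 bp away. The region on chromosome 2 at 198669127 to 198669407 had 22, 27 and 21 fragments and lay closest of the 12 to a region with a NuMA-depleted call, at 972 bp. On chromosome 17, at 32526891 to 32527375, the pileups were 19, 28 and 27, with the nearest region that held a NuMA-depleted call at 28243 bp. Replicate 3 was the highest on chromosome 19 and replicate 2 on chromosomes 2 and 17.

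The region on chromosome 13 at 25688386 to 25688764 had pileups of 20, 32 and 20 fragments, with replicate 2 above the other two, and stood at percentiles 63.3, 90.5 and 64.0 of the 3 lists. The closest region with a NuMA-depleted call was 28640 bp away. On chromosome 6, at 45534522 to 45534912, pileups were 27, 25 and 20. The next region in any list was 2342 bp away and the next that held a NuMA-depleted call 40232 bp away. On chromosome 10, at 5671935 to 5672234, the 3 folds were nearly equal at 8.54, 8.30 and 8.11. The chromosome 8 region at 144313775 to 144314000 had 27, 28 and 29 fragments, and its folds were 6.29, 7.91 and 8.13.

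The last 2 of the 12 were on chromosome 17 at 15732138 to 15732382, with 16, 22 and 18 fragments over the lowest backgrounds of the 12 (0.897, 0.748 and 0.845), and on chromosome 1 at 160386162 to 160386471, with 21, 24 and 19 fragments. The first of these was the most remote of the 12 from a region with any NuMA-depleted call, at 91506 bp. Over the 12 regions, 6 had such a region within 10 kb. Replicate 2 gave the highest fold in 9 of the 12, replicate 3 in 2 and replicate 1 in 1.

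**Figure D2:**
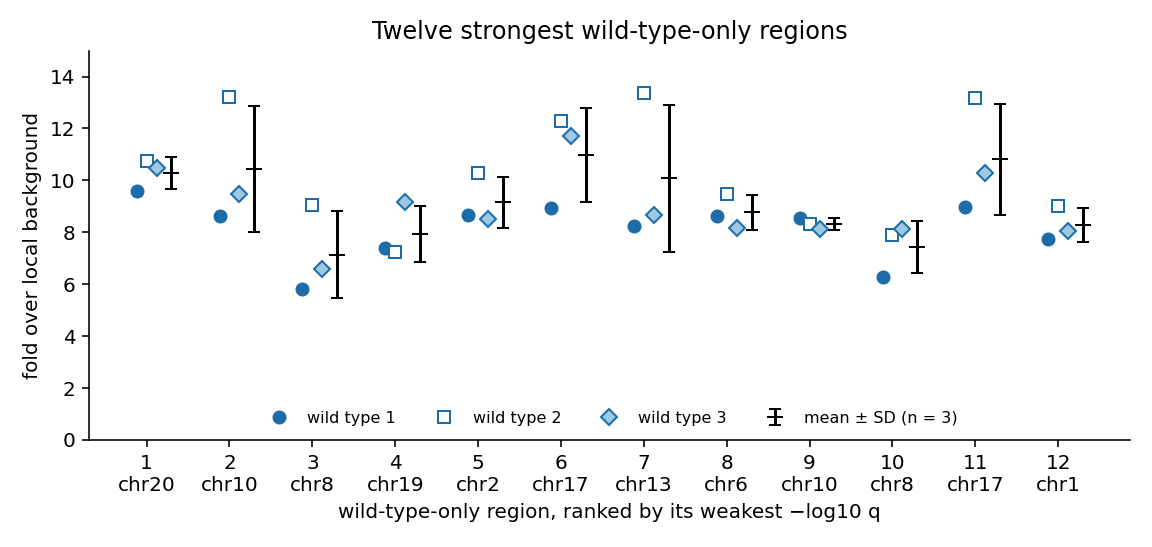
Fold over local background (vertical axis, from 0) in wild-type replicates 1 (filled circles), 2 (open squares) and 3 (diamonds) for the 12 strongest wild-type-only regions, ordered by their weakest −log10 q and named by chromosome. Black marks give the mean and SD of the 3 libraries, and replicate 2 is the highest in 9 of the 12.

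The regions just inside the rule each had 1 call near the limit of its list. The weakest region inside, on chromosome 2 at 224903309 to 224903755, had −log10 q values of 2.08, 5.05 and 7.56 in wild-type replicates 1, 2 and 3. Next came chromosome 7 at 123886446 to 123887015, with 2.13, 9.42 and 3.43, and chromosome 20 at 1699566 to 1700246, with 2.35, 10.01 and 6.77. Replicate 1 gave the weakest call in all 3. Just outside were 1207 regions called in the 3 wild-type libraries and in exactly 1 NuMA-depleted library, of which 926 (76.7%) were called in replicate 2, 260 (21.5%) in replicate 1 and 21 (1.74%) in replicate 3. The weakest NuMA-depleted call among them, on chromosome 8 at 40958260 to 40958918, had a −log10 q of 2.18 in replicate 1, beside 5.57, 9.94 and 11.7 in the wild-type libraries. The following 2, on chromosome 7 at 73498496 to 73499499 and chromosome 14 at 68443726 to 68444846, had 2.24 in NuMA-depleted replicate 2 and 2.36 in replicate 3. A further 1328 regions were called in exactly 2 wild-type and no NuMA-depleted libraries.

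Wild-type-only regions occurred both beside shared sites and in stretches with few other peaks. The gap to the nearest region called in all 6 libraries had a median of 40451 bp, and ran from 48 to 1250920 bp. That median was 33089 bp for depleted-only regions and 31504 bp from one region called in all 6 to the next. A shared region lay within 10 kb of 73 of the 349 (20.9%), within 50 kb of 195 (55.9%) and within 200 kb of 307 (88.0%). For depleted-only regions these shares were 21.7%, 60.6% and 93.8%. Regions are not replicates of a condition, so these differences were not tested.

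**Figure D3:**
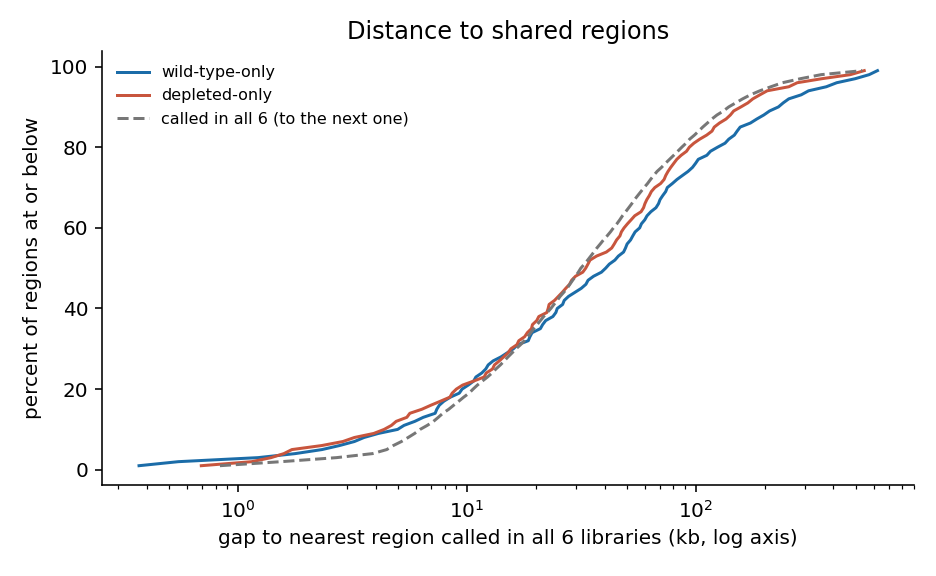
Cumulative percent of regions (vertical axis) by the gap in kb to the nearest region called in all 6 libraries (horizontal log axis), from the 1st to the 99th percentile, for wild-type-only regions (blue), depleted-only regions (red) and the regions called in all 6 themselves (dashed grey). The 3 curves run close together at gaps of about 10 kb, and at longer gaps the blue curve lies to the right, with 55.9% of wild-type-only and 60.6% of depleted-only regions under 50 kb.

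At the short end, 30 of the 349 regions (8.60%) lay less than 1 kb from a merged region with a NuMA-depleted call, although none overlapped one. This share was 4.62% in depleted-only regions and 4.84% in regions called in all 6, both of which hold NuMA-depleted calls themselves. The gap from depleted-only regions to wild-type calls was not measured, so the shares are not mirror measures. In 9 regions every NuMA-depleted library had a peak under 1 kb away. The closest to a shared region was the one on chromosome 2 at 224903309 to 224903755, 48 bp from a region called in all 6 libraries, which was also the weakest of the 349. On the same chromosome the region at 113402004 to 113402713, with 19, 19 and 21 fragments, was 109 bp from a shared region. The next 3 were on chromosome 12 at 120730735 to 120731052 (19, 23 and 18 fragments, 247 bp), chromosome 4 at 85886707 to 85887231 (18, 15 and 17 fragments, 348 bp) and chromosome 16 at 47006544 to 47007003 (19, 15 and 14 fragments, 393 bp). At such distances the split of 1 open site into 2 peaks and a second site cannot be told apart from peak lists. When peaks were merged also across gaps of up to 1 kb, 333 wild-type-only regions were counted.

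At the long end, 41 regions (11.7%) had no region of any list within 50 kb, and 16 (4.58%) none within 100 kb. The shares at 100 kb were 1.44% for regions called in all 6 and 1.36% for depleted-only regions. The most isolated was on chromosome X at 104166776 to 104167131, 551407 bp from any other region, with pileups of 16, 20 and 10 fragments in wild-type replicates 1, 2 and 3. The region on chromosome 5 at 84344792 to 84345383 stood 414230 bp from the next, with 12, 11 and 11 fragments. The one on chromosome 4 at 18884165 to 18884444, 279082 bp from the next, reached 9, 6 and 6 fragments, the last 2 at the smallest pileup of their lists. The others were on chromosome 1 at 194627156 to 194627492 (14, 11 and 8 fragments, 250497 bp) and chromosome 10 at 32980975 to 32981457 (13, 16 and 19 fragments, 245307 bp), whose nearest neighbour was called in all 6 libraries. Isolated regions thus included sites at the detection limit and sites that exceeded the median pileup of 14 in single libraries.

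The kind of region found next to a wild-type-only region was close to the mix over the genome. The nearest neighbour was called in all 6 libraries in 92 cases (26.4%), where such regions make up 28.9% of all merged regions. It was called in 2 to 5 libraries of both groups in 139 (39.8%, against 38.1%). It was found in NuMA-depleted libraries alone in 73 (20.9%, against 19.4%) and in 1 or 2 wild-type libraries alone in 44 (12.6%, against 7646 of the 58926). In 1 case the nearest neighbour was another wild-type-only region.

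The design allowed 2 measures of peaks outside the wild-type-only regions to be compared between the groups. In the main setting neither differed beyond the spread of the libraries. Fold is a ratio to the local background, which differed between the groups at shared neighbours within 10 kb. A measure built on fold was thus not shown to be free of the choice of regions. The first measure was the share of a library's own peaks that had their summit 1 to 50 kb outside a wild-type-only region. It was 2.20%, 2.27% and 2.20% in wild-type replicates 1, 2 and 3, and 2.30%, 2.22% and 2.24% in NuMA-depleted replicates 1, 2 and 3. The groups overlapped, at 2.22% ± 0.0403 (SD, n = 3) in wild-type and 2.25% ± 0.0374 (SD, n = 3) in NuMA-depleted libraries, with p = 0.4 (exact permutation test over libraries, two-sided; 0.4 also when adjusted over the 2 measures). With 3 libraries against 3 this test cannot go below 0.10. With the strongest 21783 peaks of each library the groups no longer overlapped. The shares were then 2.14%, 2.19% and 2.16% in wild-type and 2.24%, 2.23% and 2.24% in NuMA-depleted libraries (exact permutation p = 0.1). The mean share was higher in NuMA-depleted libraries under both settings. The divisor was the library's own list, which by the rule holds wild-type-only peaks in wild-type lists and none in NuMA-depleted lists. The rule itself thus lowers the wild-type shares, by an amount that was not measured. Around the depleted-only regions the mean was higher in wild-type libraries and the groups overlapped, at 2.30%, 2.32% and 2.41% against 2.29%, 2.31% and 2.20% (exact permutation p = 0.2). There the rule for depleted-only regions lowers the NuMA-depleted shares in the same way. Without wild-type replicate 2 the groups did not overlap around the wild-type-only regions, with a difference of -0.0544 percentage points between wild-type and NuMA-depleted libraries (exact permutation p = 0.2).

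The second measure was the strength of the shared neighbours. For 195 of the 349 regions the nearest region called in all 6 libraries lay within 50 kb, which gave 194 distinct neighbours. Each was placed by its fold among the 17009 regions called in all 6, a set of the same size in every library. The median percentile of the neighbours was 38.8, 36.5 and 40.3 in wild-type replicates 1, 2 and 3 and 41.1, 37.1 and 43.9 in NuMA-depleted replicates 1, 2 and 3. These groups overlapped as well, at 38.5 ± 1.96 and 40.7 ± 3.40 (SD, n = 3 each), with p = 0.4 (exact permutation test, two-sided). Without NuMA-depleted replicate 2 they did not overlap, with a difference of -3.98 points (exact permutation p = 0.2). Ranked by pileup instead of fold, the difference of -2.18 points between wild-type and NuMA-depleted libraries turned to 0.0941. Shared regions that were the nearest such region of another within 50 kb had median fold percentiles of 45.0 to 45.9 in the 6 libraries. Neighbours of depleted-only regions had 38.9 to 47.3. By pileup the 194 neighbours had medians of 50.6 to 55.5, against 50.2 to 54.2 for shared regions nearest to another.

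**Figure D4:**
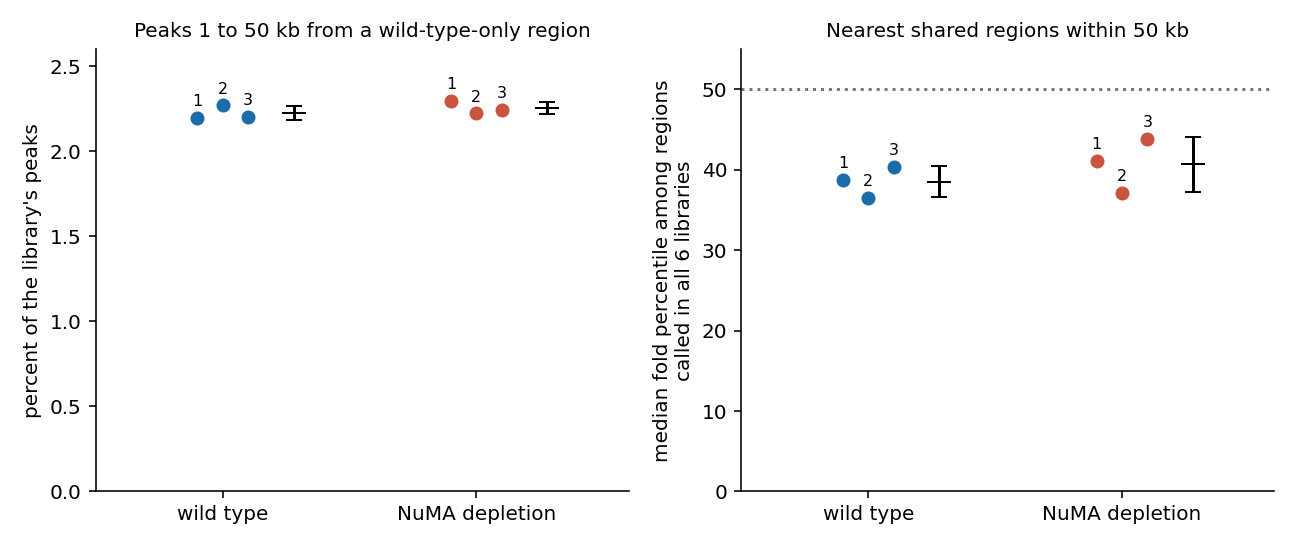
Left, percent of each library's peaks with a summit 1 to 50 kb from a wild-type-only region; right, median fold percentile of the nearest shared regions within 50 kb, with the value of 50 for all shared regions dotted. Points are libraries with their replicate number, bars the mean and SD (n = 3), both axes start at 0, and the 2 groups overlap in both panels. Shared regions nearest to another shared region within 50 kb had median fold percentiles of 45.0 to 45.9 (not drawn).

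Single neighbours were also set side by side. Of the 194, 9 (4.64%) ranked higher by fold in all 3 wild-type than in all 3 NuMA-depleted libraries, and 21 (10.8%) ranked lower. Over all 17009 regions 6.21% ranked higher and 6.75% lower. For the 73 neighbours within 10 kb the counts were 0 higher and 10 (13.7%) lower. Of 2972 shared regions that were the nearest such region of another within 10 kb, 5.79% ranked higher and 7.71% lower. Next to depleted-only regions, 17 of 222 neighbours within 50 kb (7.66%) ranked higher in wild-type libraries and 19 (8.56%) lower, and of the 80 within 10 kb 8 ranked higher and 3 (3.75%) lower. The local background, by which the fold is divided, differed between the groups at the neighbours within 10 kb. It had median percentiles of 76.9, 74.3 and 73.3 in wild-type and 71.1, 70.8 and 72.1 in NuMA-depleted libraries at the 73 neighbours of wild-type-only regions. At the 80 neighbours of depleted-only regions it had 56.8, 57.8 and 58.3 in wild-type and 64.8, 62.5 and 61.7 in NuMA-depleted libraries. Its part in the fold ranks was not tested. By pileup, which holds no division by background, 15 of the 194 neighbours (7.73%) ranked higher and 20 (10.3%) lower, against 8.2% and 8.77% of all regions called in all 6. Within 10 kb the counts by pileup were 4 higher and 8 lower of the 73, and 9 higher and 11 lower of the 80 next to depleted-only regions, so that the direction seen by fold beside the depleted-only regions did not hold by pileup.

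Wild-type-only regions were scattered over all 23 chromosomes. Neighbouring members of the set were seldom close, with 1 pair under 10 kb apart, 2 under 50 kb and 4 under 100 kb. The median gap to the next wild-type-only region was 2313040 bp. Chromosome 4 had the highest density, with 28 wild-type-only among 2732 merged regions, or 10.2 per 1000, against 5.92 per 1000 over the genome and 3.09 on chromosome 21. Depleted-only regions on chromosome 4 numbered 22. Chromosome 4 thus held 5.98% of depleted-only and 8.02% of wild-type-only regions, against 4.64% of all merged regions. The gene-dense chromosomes 19 and 22 held 18 wild-type-only regions (5.16%, against 6.03% of all merged regions), and the gene-poor chromosomes 4, 13 and 18 held 40 (11.5%, against 8.87%). Of these 3, chromosomes 13 and 18 had 5.18 and 4.38 per 1000, both below the density over the genome. Chromosome 4 was singled out after its values were seen, and no chromosome was tested here.

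The densest stretch lay on the short arm of chromosome 17, where 4 wild-type-only regions fell within 308 kb, from 15562864 to 15870510. No other stretch of up to 500 kb that did not share these regions held more than 2. It contained 11 merged regions, of which 1 was called in all 6 libraries. The lists of wild-type replicates 1, 2 and 3 had 8, 8 and 10 of them, and those of NuMA-depleted replicates 1, 2 and 3 had 5, 6 and 2, counts that include the 4 regions placed in the wild-type lists by the rule. Of the other 7 regions the wild-type lists had 4, 4 and 6 and the NuMA-depleted lists 5, 6 and 2, so that the groups overlapped. This stretch was picked after its values were seen.

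Of the 4 regions, the first, at 15562864 to 15563399, had pileups of 19, 20 and 20 fragments in wild-type replicates 1, 2 and 3. The second, at 15732138 to 15732382, was the member of the 12 strongest described above, with 16, 22 and 18. The third, at 15862321 to 15862794, had 24, 31 and 21 fragments. The fourth, at 15870017 to 15870510, had 14, 13 and 20, and lay 7222 bp from the third, the closest pair of the whole set. Between these 2 was 1 region called in both groups. The shared region inside the stretch, which began 40.0 kb from its start, had folds of 9.35, 14.5 and 10.8 in wild-type and 12.8, 10.8 and 12.2 in NuMA-depleted replicates 1, 2 and 3, so that the 2 groups overlapped there.

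**Figure D5:**
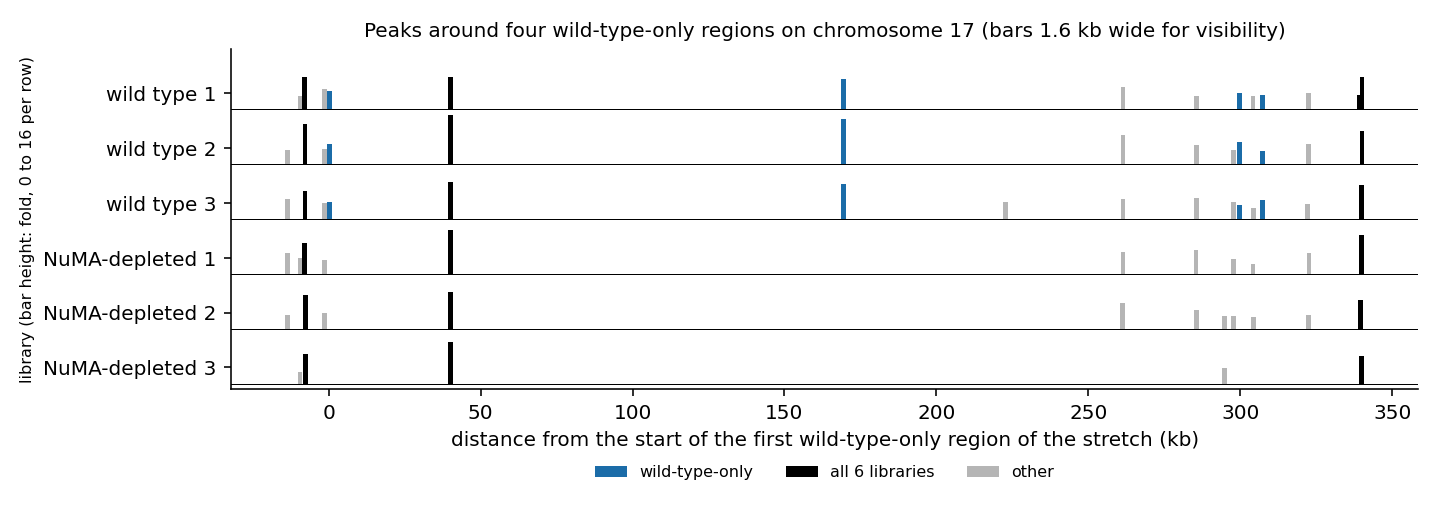
Peaks of the 6 libraries (rows) around the 4 wild-type-only regions of chromosome 17, by distance in kb from the start of the first. Bar height is the fold over background (0 to 16 per row), bar width is fixed, and blue marks wild-type-only regions, black regions called in all 6 libraries and grey all others; blue bars stand in the 3 wild-type rows and in no NuMA-depleted row, while black bars stand in all 6.

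The only other pair under 50 kb was on chromosome 9, at 117541557 to 117542008 and 117568005 to 117568700, 25996 bp apart with 1 region between them. Further pairs are named after their values were seen. The next lay on chromosome 17, at 63429922 to 63431091 and 63491245 to 63491930, 60153 bp apart with 2 between them. On chromosome 12 the regions at 105184263 to 105184565 and 105280092 to 105280659 were 95526 bp apart, and no list had a peak between them. In the dense stretch, the second region and the third were 129938 bp apart.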

How the data were processed

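ATAC-seq peak lists of 3 wild-type and 3 NuMA-depleted HCT116 libraries were used, grouped by the genotype label. Trim Galore, Bowtie2 2.4.1, Picard and the build hg19 are named in the submitters' processing notes, without their roles. The deposited peak names point to a macs2 directory. Not given in the sources used here are the caller's settings, the filtering or shifting of reads and the masking of artefact-prone sites. Each sample has its own list. The deposited lists give for each peak a fold over local background (a ratio), the −log10 p-value, the −log10 q-value (at least 2.00 in the 6 lists), a summit and a score, which was not used. These values belong to their own list and served to describe, rank or filter.

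Summit pileup was recovered from the authors' fold and −log10 p-value under a Poisson model, with a tolerance of 0.01. It came out whole for 99.986% of peaks or more in each library. Relative depth is the smallest background divided by the smallest peak width, scaled to a mean of 1. This takes the smallest width as the fragment length of the caller, which no source states, and depth in reads remained unknown. Peaks were merged at 1 bp of overlap, and the strongest peak by q stood for a library in a region. The 2 tested measures were compared over libraries by exact permutation, two-sided. Python 3.11.15, numpy 2.4.6, pandas 2.3.3 and scipy 1.17.1 were used, and merging, gaps and pileup recovery were tested on simulated data.

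The regions and the measures were chosen with earlier results of these data known. Regions named were the 12 with the highest weakest −log10 q, the 5 most isolated, the 5 closest to a region called in all 6 libraries, the 3 widest, pairs under 50 kb apart, and 3 on each side of the edge of the rule. The dense stretch on chromosome 17, chromosome 4 and the pairs farther apart than 50 kb fall outside this rule and were picked after their values were seen. Alternatives changed list thresholds, list lengths, distances, rankings, chromosomes and libraries. No annotation or genome of build hg19 was used here, so regions were not placed on genes, no sequence was read, and the cell type was not checked against marker genes.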

Additional observations from a re-analysis of the deposited data

How the results depend on the processing

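All alternatives were planned. The count of 349 wild-type-only regions stayed within 1.5 times under 6 of 13 alternatives. It was 1677 when 2 of the 3 wild-type libraries sufficed, 191 with peaks of at least 264 bp in every list, and 370 to 1287 on omitting 1 library at a time. The number of depleted-only regions, 368 in the main setting, was 2967, 382 and 432 to 2691 in turn. Which set was larger depended on the setting. Without NuMA-depleted replicate 3 there were 370 wild-type-only against 2691 depleted-only regions, and without replicate 2 there were 1287 against 432. For flanking peaks the difference, -0.0312 percentage points, kept its sign under all 13 alternatives, with values of -0.0544 to -0.0106 on such omissions. As the rule itself lowers the wild-type share, this sign is not free of the choice of regions. The neighbour percentile, with a difference of -2.18 points, turned to 0.0941 with ranks by pileup, kept its sign under the other 12 and lay between -3.98 and -0.597 on the omissions. The cause of the turn was not tested. With a replicate block (exact sign flips within same-numbered pairs, which cannot go below p = 0.25) p was 0.75 for flanking peaks and 0.25 for neighbour percentiles, with the differences of -0.0312 and -2.18 as before. With or without the block, p could not reach the threshold of 0.05, so no call could change. Fold percentiles of regions called in all 6, less their group means, correlated at -0.0266, -0.0186 and -0.0194 between same-numbered replicates 1, 2 and 3. No library correlated best with its own number. Values this small cannot tell whether same-numbered libraries were prepared together. Among the descriptions, the summit spread of 93 bp was 104.5 bp between peak midpoints. The median gap of 40451 bp fell to 10726 bp when regions with any NuMA-depleted call were the target, as that set is larger. The mean of the 3 median list percentiles, 26.3, was 29.3 by fold, and the median of the mean width, 330 bp, was 478 bp for the merged span. What absence from a list means is limited, as the median pileup in the wild-type libraries was 14 fragments. The part of depth in it was not tested.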
